A study of Homo sapiens with 12 samples.

Results

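The 8 genes described here, ABCB1, ABCG2, ABCC1, ABCC2, ABCC3, ABCC4, ABCC5 and ABCC10, encode ATP-binding cassette (ABC) transporters that pump drugs out of cells. They were taken by symbol from the 56832 gene symbols counted in RNA-seq libraries labelled SW1736, a cell line derived from an anaplastic thyroid cancer. Part of the set was selected on these data: ABCB1 was chosen by its rise in receptor cells given hormone and ABCG2 by its response to hormone in both kinds of cells. Those values are given as descriptions with no test. The 6 ABCC genes were listed as family members and not for their values, and they were tested in every comparison. All 8 passed the filter on low counts. ABCB1 passed it through the receptor cells given hormone, and the other 7 also passed on the 9 libraries that leave that group out.

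ABC transporters use ATP to move substrates across membranes. ABCB1 (P-glycoprotein, MDR1) and ABCG2 (breast cancer resistance protein) sit in the plasma membrane and export a broad range of hydrophobic drugs and toxins, and both are best known from gut, liver and the blood-brain barrier. The ABCC members (multidrug resistance proteins) export mainly organic anions, among them conjugates with glutathione or glucuronic acid. Thyroid hormone receptor beta, encoded by THRB, is a nuclear receptor that binds DNA and changes transcription when triiodothyronine (T3) occupies it.

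Cells carried either the empty vector pCDH-EV or the vector pCDH-TRB, which gives stable expression of the receptor, and are called EV and TRB cells here. Every culture was first deprived of hormone for 24 hours in charcoal-stripped serum without phenol red. It then received 10 nM T3 or the NaOH vehicle for a further 24 hours. Each of the 4 groups had 3 libraries of total RNA. The promoter driving the receptor, and whether each line was 1 clone, are not given in the sources used here. The labels do not say that replicates came from separate cultures, so p-values measure the spread between these libraries, which may be technical.

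Gene counts summed to between 3819306 and 13086717 per library. Levels are CPM, read counts scaled to equal library size and composition. THRB stood at 14.6 ± 1.39 CPM (mean ± SD, n = 3) in EV cells in vehicle and 14.9 ± 3.04 in EV cells with T3. In TRB cells it stood at 80.1 ± 0.314 in vehicle and 269.6 ± 69.8 with T3. It was thus higher in TRB than in EV cells, as the vector labels say. Within TRB cells THRB was also higher with T3 than in vehicle, by 1.75 on the log2 scale (SE 0.222). The part of that rise in the T3 comparisons below was not tested. Replicate 2 of the TRB cells with T3 stood apart: it had the fewest genes with a count, 17833, and its deviation from the 2 other libraries of its group followed the GC content of the genes, with a Spearman correlation across genes of -0.885. A trend with GC content was also seen in other libraries: the same correlation was -0.822 for EV T3 replicate 2, 0.794 for EV T3 replicate 3 and -0.658 for EV vehicle replicate 2. The tests of the 6 ABCC genes are therefore given from all 12 libraries, again without TRB T3 replicate 2, and with offsets for GC content. Thyroid lineage markers were low or absent: TSHR and FOXE1 had 0 counts in all libraries, and PAX8 lay between 0.72 and 6.98 CPM. The epithelial marker EPCAM lay between 317.1 and 1100 CPM, the mesenchymal marker CDH2 had 0 counts, and VIM was at most 1.51 CPM. Of 4 hepatocyte or enterocyte markers, VIL1, a microvillus protein of gut-like epithelia, lay between 154.6 and 207.5 CPM. The others were low or near 0: CDX2 was at most 3.80, APOA1 at most 0.102 and ALB at most 0.075 CPM. The other mesenchymal markers were present: FN1 stood at 14.7 ± 1.55 and COL1A1 at 18.6 ± 1.75 CPM in EV cells in vehicle (n = 3). High epithelial markers with near-absent CDH2 and VIM are unusual for a line from an anaplastic thyroid cancer, so the label of the line is in doubt. Its identity was not tested, and the values below describe the libraries as deposited. The summed CPM of the 4 mesenchymal markers was 33.5 to 35.4 in EV cells in vehicle, 88.3 to 107.8 in EV cells with T3, 35.8 to 38.6 in TRB cells in vehicle and 149.3 to 316.8 in TRB cells with T3. FN1 accounted for 70.7 ± 4.0 CPM of it in EV cells with T3 and for 241.6 ± 83.3 CPM in TRB cells with T3 (n = 3). COL1A1 went the other way in TRB cells, from 26.6 ± 1.32 CPM in vehicle to 9.99 ± 7.43 with T3. VIM stood at 0.97 ± 0.468 and 0.44 ± 0.565 CPM there. In TRB cells the sum thus rose through FN1 only. In EV cells with T3, COL1A1 stood at 24.0 ± 8.28 and VIM at 0.62 ± 0.416 CPM. The summed CPM of 7 thyroid lineage markers was 1.08 to 5.25 in TRB cells with T3 and 6.48 to 10.9 in the other libraries. That of 3 blood cell markers was 0.180 to 9.87 in TRB cells with T3 and at most 2.28 elsewhere, and that of 3 endothelial markers was at most 0.217. The part of these markers in the results below was not tested. In such bulk samples, fewer cells with a transcript and less transcript per cell cannot be told apart.

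ABCB1, the classical multidrug pump, was close to undetected outside 1 group. In EV cells in vehicle the 3 libraries held 0, 1 and 3 counts. EV cells with T3 held 3, 4 and 1 counts, and TRB cells in vehicle held 1, 0 and 2. TRB cells with T3 held 852, 607 and 516 counts, which is 63.9, 109.2 and 64.5 CPM. All 3 libraries of that group thus lay far above all 9 others, where the highest value was 0.463 CPM. For 17.3% of all genes tested, the TRB libraries with T3 lay above the TRB vehicle libraries. The share above all 9 was not computed. A library with 0 counts still allows up to 3 counts, which is 0.652 CPM in the EV vehicle library and 0.259 CPM in the TRB vehicle library.

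The ratio of summed ABCB1 counts, scaled by library size, was 816.7 between TRB cells with T3 and TRB cells in vehicle, from 1975 against 3 counts. Its exact 95% interval of 279.1 to 3964 covers counting error only. Without replicate 2 the ratio was 713.2, with an interval of 243.5 to 3462. Against EV cells with T3, which held 8 counts in all, the ratio was 182.7, with an interval of 92.5 to 423.7, and 159.5 without replicate 2. These ratios describe the contrast for which ABCB1 was chosen. ABCB1 had at most 4 counts in any of the 9 other libraries and did not pass the filter on them, so no fold change and no test is given among those groups.

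ABCB1 lies on chromosome 7 from 87503633 to 87713323 (hg38) on the minus strand. RefSeq gives it a pair of starts, one far upstream and one, the downstream start, from which most transcripts of the gene are known to begin. The 250 bases before each start are shown because ABCB1 had the largest contrast between groups among the members. Capitals mark matches to letters searched on both strands. These were the receptor hexamer AGGTCA, that hexamer repeated after 4 bases, the RUNX core TGTGGT, the GC box GGGCGG and the hypoxia core ACGTG.
ABCB1 upstream start, chr7:87713296-87713545, minus strand: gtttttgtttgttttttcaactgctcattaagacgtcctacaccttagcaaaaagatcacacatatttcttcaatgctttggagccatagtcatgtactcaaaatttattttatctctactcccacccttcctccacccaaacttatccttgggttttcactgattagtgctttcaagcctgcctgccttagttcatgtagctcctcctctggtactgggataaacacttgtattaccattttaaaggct
ABCB1 downstream start, chr7:87600885-87601134, minus strand: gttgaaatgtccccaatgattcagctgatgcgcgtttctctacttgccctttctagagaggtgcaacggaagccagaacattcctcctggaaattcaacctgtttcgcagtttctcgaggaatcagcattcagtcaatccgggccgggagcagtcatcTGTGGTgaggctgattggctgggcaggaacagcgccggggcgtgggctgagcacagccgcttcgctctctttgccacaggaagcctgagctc
The upstream window held no match, and the downstream window held the RUNX core once, 92 bases before the start. Of 35116 RefSeq windows of this length, 11% held that core. The hexamer AGGTCA was found in 12.1% of the windows and the repeat in 0.0142%. Neither was in the letters of these 2 windows, and these matches describe letters only.

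Of 11 listed genes beside ABCB1, 10 passed the filter, and 1 was called higher and none lower with T3 in TRB cells. That is close to the 8.54% of all genes tested that edgeR's quasi-likelihood test called higher. A gene is called at an adjusted p under 0.05 (Benjamini-Hochberg over the 14431 genes tested, or 14825 without replicate 2). Without replicate 2, 1 was called higher and 1 lower, against 18.1% of all genes called higher and 33.3% called in either direction. The gene called higher from 12 libraries was ABCB4, which encodes a phospholipid transporter of the bile canaliculus and lies 23198 bases from ABCB1. ABCB4 rose from 1.88 ± 0.193 to 8.82 ± 1.76 CPM (n = 3), a log2 fold change of 2.21 (SE 0.276) with an edgeR adjusted p of 0.00039, and of 2.09 without replicate 2. ABCB4 and ABCB1 are close paralogs, and reads that fit both may be left out of both counts. RUNDC3B overlaps 85776 bases of the ABCB1 gene on the opposite strand, with no exon base in common. RUNDC3B was too low to be tested, at 0.75 to 3.78 CPM in TRB cells with T3 and at most 0.211 CPM elsewhere. Whether counting used strand is not given in the sources used here.

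ABCG2 was higher with T3 in both kinds of cells, and by far more in cells with the supplied receptor. EV cells in vehicle had 6.30, 5.07 and 5.24 CPM, from 29, 62 and 57 counts. With T3 the EV cells had 55.2, 53.0 and 53.2 CPM. TRB cells in vehicle had 3.25, 2.93 and 2.18 CPM, and with T3 they had 292.5, 547.8 and 278.6 CPM. The 4 groups did not overlap, and they ran from TRB vehicle through EV vehicle and EV with T3 to TRB with T3. For 17.3% of all genes tested, the TRB libraries with T3 lay above those in vehicle. The share with such an order over the 4 groups was not computed.

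The log2 fold change of ABCG2 with T3 was 3.29 (SE 0.288) in EV cells and 7.06 (SE 0.338) in TRB cells. Without replicate 2 of the TRB cells with T3 these were 3.32 (SE 0.137) and 6.73 (SE 0.152). Those log2 responses differed by 3.77 (SE 0.392), or by 3.41 (SE 0.206) without replicate 2. With T3 in both, TRB cells were above EV cells by 2.79 on the log2 scale, or 2.47 without replicate 2. These values describe the pattern for which ABCG2 was chosen and carry no test. They also share libraries, since the TRB libraries with T3 enter 3 of these comparisons.

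In vehicle ABCG2 stood lower in TRB than in EV cells, at 2.79 ± 0.549 against 5.54 ± 0.667 CPM (SD, n = 3). The log2 difference was -0.98 (SE 0.286). These vehicle libraries are the baseline of the responses for which ABCG2 was chosen, so this too is a description with no test. All 3 TRB libraries lay below all 3 EV libraries, as they did for 20.5% of all genes tested.

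**Figure D1:**
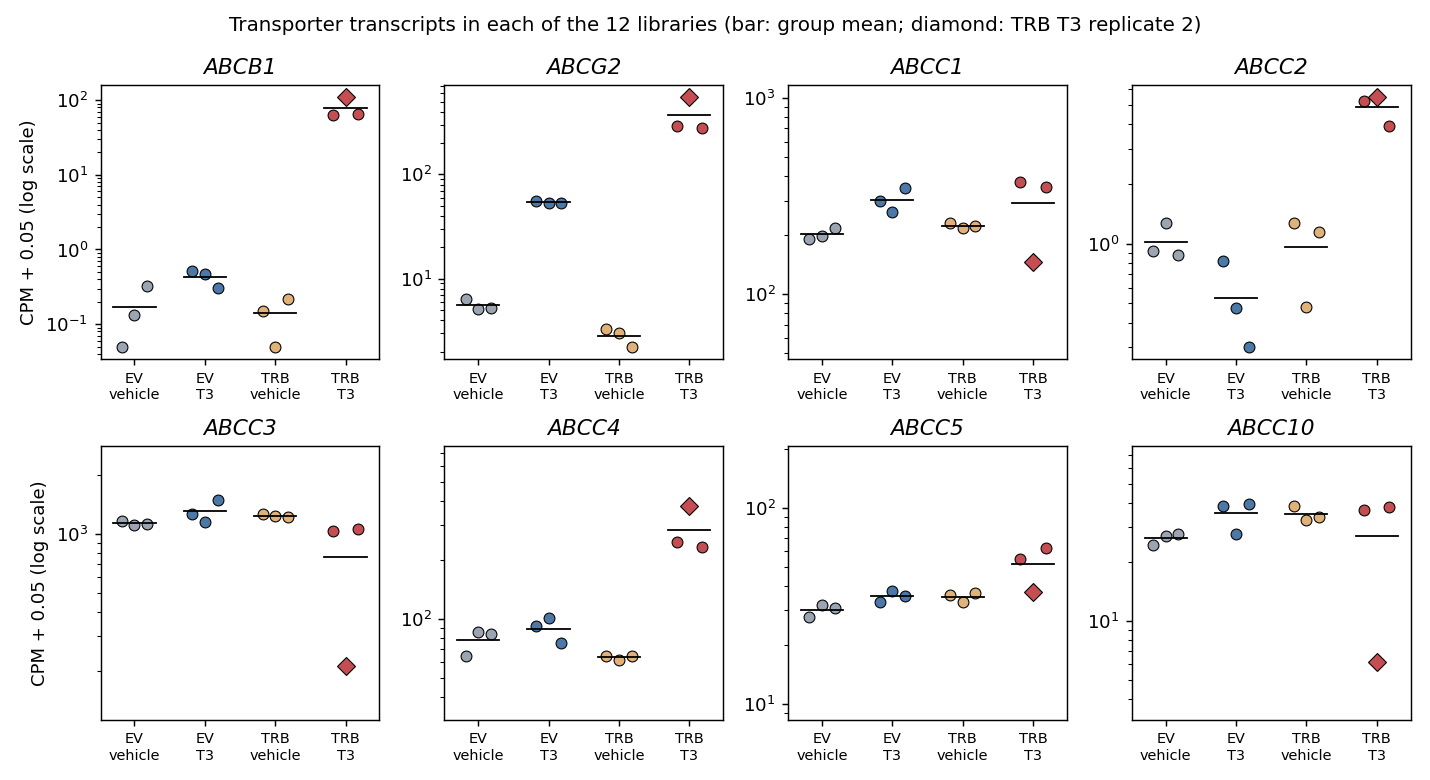
Level of each of the 8 transporters in every library, as CPM plus 0.05 on a log axis, by group; each point is 1 library and the diamond is replicate 2 of the TRB cells with T3. ABCB1 stands at 63.9 to 109.2 CPM in TRB cells with T3 and at most at 0.463 CPM elsewhere, ABCG2 steps up with T3 in both kinds of cells, and the diamond lies far below its group for ABCC3 and ABCC10.

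ABCG2 lies on chromosome 4 from 88090264 to 88231322 (hg38), on the minus strand, and has 5 start windows in the RefSeq table. The window shown is the only one of the 12 windows of these transporters with the receptor hexamer, here as its reverse complement TGACCT, 150 bases before the start. It also has the RUNX core, 85 bases before the start. It begins within the span of ABCG2 transcripts that start upstream of it.
ABCG2, chr4:88158640-88158889, minus strand: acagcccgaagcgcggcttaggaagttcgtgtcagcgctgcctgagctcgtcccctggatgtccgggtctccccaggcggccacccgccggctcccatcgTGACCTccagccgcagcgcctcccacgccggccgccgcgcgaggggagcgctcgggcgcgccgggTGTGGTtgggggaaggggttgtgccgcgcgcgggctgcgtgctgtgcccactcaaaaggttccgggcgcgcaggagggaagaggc
Letters like these were found in 12.1% of all windows for the hexamer and in 11% for the RUNX core. The T3 comparisons above do not bear on which start was used, since reads were counted per gene.

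Around ABCG2, 9 of 11 listed neighbours were tested and 5 were called higher with T3 in TRB cells, and none lower. HERC6, a ubiquitin ligase gene 147417 bases away, rose from 1.61 ± 0.391 to 24.97 ± 12.6 CPM (n = 3), a log2 fold change of 3.94 (SE 0.391, edgeR adjusted p 9.29e-05), and of 3.52 without replicate 2. The other four were NAP1L5, TIGD2, HERC3 and PKD2, with log2 fold changes of 1.57, 1.23, 1.19 and 1.05. These were 1.02, 0.78, 0.72 and 0.73 without replicate 2, and all were still called. PKD2, the polycystin-2 channel gene, lies 12487 bases from ABCG2. Of all genes tested, 8.54% were called higher in this comparison from 12 libraries and 18.1% without replicate 2. In EV cells edgeR called 0.229% of all genes, with 881 of 14431 at an unadjusted p under 0.05, and DESeq2 called 172. Of the 9, edgeR called none there, with 0 at an unadjusted p under 0.05, and DESeq2 called none.

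Among the ABCC genes, ABCC4 and ABCC2 rose with T3 in TRB cells, and neither passed the test in EV cells with 12 or with 11 libraries. From 12 libraries, 2 of the 6 ABCC genes were called for T3 in TRB cells, both higher, against 14.7% of all genes tested. Without replicate 2, 4 of 6 were called, all higher, against 33.3%. The shares of all genes called higher were 8.54% and 18.1%. The median log2 fold change of the 6 was 0.46 with 12 libraries and 0.77 with 11, beside a median over all genes of 0.01 and -0.01.

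ABCC4 exports cyclic nucleotides, prostaglandins and nucleotide analogs. Its libraries had 64.7, 85.6 and 83.0 CPM in EV cells in vehicle and 91.4, 100.1 and 74.9 CPM with T3. They had 64.3, 61.8 and 64.2 CPM in TRB cells in vehicle and 244.7, 375.3 and 230.8 CPM with T3. The EV groups overlapped, and every TRB library with T3 lay above all 9 others. For 17.3% of all genes tested, all TRB libraries with T3 lay above all TRB libraries in vehicle. The share above all 9 others was not computed.

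The log2 fold change of ABCC4 with T3 in TRB cells was 2.16 (SE 0.221), which edgeR called higher at an adjusted p of 0.000115, and 1.96 (SE 0.139, adjusted p 3.77e-07) without replicate 2. In EV cells the log2 fold change was 0.19 (SE 0.213, adjusted p 0.935), and 0.20 (adjusted p 0.327) without that library. With offsets that remove each library's trend with GC content, it was 0.35 with an adjusted p of 0.0484. The difference between the 2 responses was itself tested: it was 1.97 (SE 0.303, adjusted p 0.00831) and 1.76 (SE 0.189, adjusted p 7.86e-05) without replicate 2. With T3 in both, ABCC4 was higher in TRB than in EV cells by 1.67 (adjusted p 0.00136). Fitted on those 6 libraries alone the difference was 1.68 with an adjusted p of 0.0785.

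ABCC4 lies on chromosome 13 from 95019829 to 95301475 (hg38), on the minus strand. Its window is shown because, of the 6 ABCC genes, ABCC4 had the pattern over libraries most like that of ABCB1. It was rich in G and C and held none of the letters searched.
ABCC4, chr13:95301452-95301701, minus strand: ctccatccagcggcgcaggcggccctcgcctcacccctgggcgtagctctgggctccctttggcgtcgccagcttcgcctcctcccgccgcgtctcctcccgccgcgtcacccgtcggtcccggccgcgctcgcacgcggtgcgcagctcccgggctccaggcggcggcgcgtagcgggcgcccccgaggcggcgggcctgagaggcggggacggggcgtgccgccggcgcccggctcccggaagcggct
ABCC2, ABCC5 and ABCC10 also had windows in that table, while ABCC1 and ABCC3 were not matched.

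ABCC2, the apical conjugate pump of liver and gut, was low throughout. It had 4, 15 and 9 counts in EV cells in vehicle, and 5, 4 and 1 with T3. It had 12, 5 and 13 counts in TRB cells in vehicle, and 69, 30 and 31 with T3, which is 5.18, 5.40 and 3.87 CPM. Its highest value in the 9 other libraries was 1.23 CPM, so the TRB libraries with T3 did not overlap the rest. They lay above the TRB vehicle libraries, as for the 17.3% of all genes given above. Replicate 2 lay 0.26 on the log2 scale above the mean of the 2 others of its group.

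ABCC2 rose by 2.39 (SE 0.362, adjusted p 0.00135) with T3 in TRB cells, and by 2.38 (adjusted p 0.000144) without replicate 2. In EV cells its log2 fold change was -0.97 (SE 0.497, adjusted p 0.89), with at most 15 counts in a library. The difference between the 2 responses was 3.36 (SE 0.61, adjusted p 0.0184), and 3.35 (adjusted p 0.00344) without replicate 2. That call was lost without any 1 of 4 other libraries: adjusted p was 0.0504 without TRB vehicle replicate 3, 0.086 without EV vehicle replicate 2, 0.0602 without EV T3 replicate 2 and 0.0542 without EV T3 replicate 3. With T3 in both, TRB cells were above EV cells by 3.23 (adjusted p 0.0016), or 3.24 (adjusted p 0.0581) from those 6 libraries alone.

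**Figure D2:**
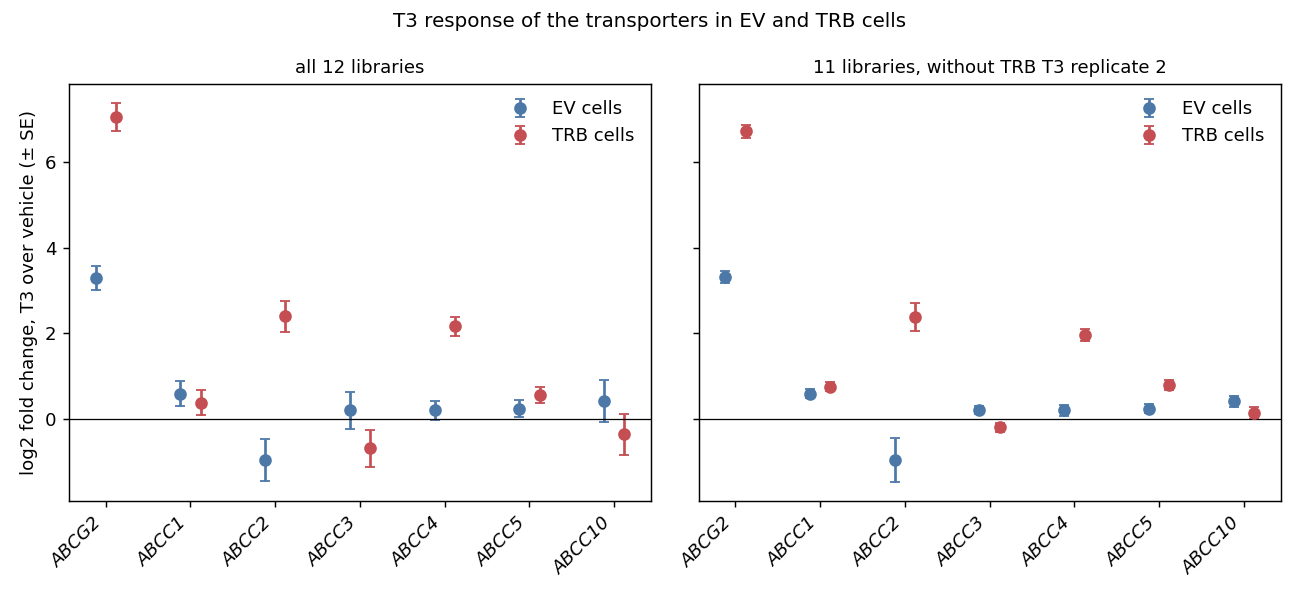
Log2 fold change with T3 against vehicle of ABCG2 and the 6 ABCC genes in EV and in TRB cells, from 12 libraries and from 11 without replicate 2 of the TRB cells with T3; bars are standard errors from edgeR, and ABCB1 is left out because its vehicle counts are near 0. ABCG2, ABCC2 and ABCC4 are high in TRB cells in both fits, and of these fits ABCC1 and ABCC5 pass the test in TRB cells in the one without replicate 2.

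ABCC1 and ABCC5 rose with T3 in TRB cells once replicate 2 was left out. ABCC1, a pump for glutathione conjugates and anthracyclines, had 191.6, 197 and 217 CPM in EV cells in vehicle and 299.1, 263.1 and 347.3 CPM with T3. TRB cells had 230.5, 216.4 and 223.3 CPM in vehicle and 373.2, 145.9 and 350.9 CPM with T3. The 145.9 CPM is replicate 2, the lowest of all 12 libraries for ABCC1, while the 2 others of its group were the highest.

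The log2 fold change of ABCC1 in TRB cells was 0.38 (SE 0.289, adjusted p 0.389) with replicate 2 and 0.75 (SE 0.11, adjusted p 0.000204) without it. In EV cells it was 0.59 (adjusted p 0.869) from 12 libraries and 0.58 (SE 0.101, adjusted p 0.00564) from 11. The ABCC1 responses of the 2 kinds of cells were not shown to differ: the difference was -0.21 (SE 0.408, adjusted p 0.745) from 12 libraries and 0.16 (SE 0.15, adjusted p 0.498) from 11.

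ABCC5, which exports cyclic nucleotides and nucleotide analogs, had 27.6 to 31.9 CPM in EV cells in vehicle and 33.2 to 37.5 CPM with T3. In TRB cells it had 33.0 to 36.6 CPM in vehicle, and 54.9, 37.2 and 62.5 CPM with T3. Its log2 fold change in TRB cells was 0.55 (SE 0.197, adjusted p 0.0868), 0.79 (SE 0.114, adjusted p 0.000178) without replicate 2, and 0.60 (adjusted p 0.0169) in DESeq2 with 12 libraries. In EV cells it was 0.23 in both fits, with adjusted p of 0.935 and 0.184. The difference between responses was 0.32 (adjusted p 0.475), or 0.55 (SE 0.158, adjusted p 0.0337) without replicate 2. An antisense gene, ABCC5-AS1, lies within ABCC5.

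ABCC3 and ABCC10 did not pass the test with T3 with 12 or with 11 libraries. ABCC3, a basolateral exporter of bile salts and glucuronides, had the highest CPM of the 8 genes in every library but TRB T3 replicate 2, where ABCG2 and ABCC4 were higher. It stood at 1137 ± 26.5 CPM in EV cells in vehicle, 1303 ± 175.2 in EV cells with T3 and 1238 ± 21.1 in TRB cells in vehicle. TRB cells with T3 had 1029, 212.8 and 1053 CPM, all below every other library, replicate 2 by far the lowest. Such a gap in that direction between the TRB groups was seen for 23.5% of all genes tested. The log2 fold change of ABCC3 in TRB cells was -0.69 (SE 0.439, adjusted p 0.301), and -0.20 (SE 0.107, adjusted p 0.174) without replicate 2. With the GC offsets it was -0.50 (adjusted p 0.0155), and -0.33 (adjusted p 0.000748) with those offsets and without replicate 2.

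ABCC10, a pump for taxanes and other lipophilic drugs, lay between 24.3 and 39.5 CPM in all libraries but replicate 2 of the TRB cells with T3, where it had 6.12 CPM. Its log2 fold change with T3 in TRB cells was -0.37 (SE 0.483, adjusted p 0.613), and 0.14 (SE 0.143, adjusted p 0.5) without replicate 2, so even its direction rested on that library. ABCC10 shares 79 exon bases with DLK2.

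For T3 in EV cells, edgeR called 0 of the 6 ABCC genes from 12 libraries, with 0 at an unadjusted p under 0.05, and DESeq2 called 0, with 1 at an unadjusted p under 0.05. Over all genes 0.229% were called. Without replicate 2 of the TRB cells with T3, 1 was called, ABCC1, against 7.33% of all genes. For TRB against EV cells in vehicle, edgeR and DESeq2 both called 0 of 6 from 12 libraries, with 0 at an unadjusted p under 0.05, against 0.0208% of all genes. The count was 0 of 6 without replicate 2, with 2 at an unadjusted p under 0.05, against 0.0742%. From the vehicle libraries alone ABCC10 was called, at 0.42 (adjusted p 0.0261), in a fit that called 1563 of 14008 genes tested.

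With T3 in both, ABCC4 and ABCC2 were called between TRB and EV cells, which is 2 of 6 against 6.68% of all genes. Without replicate 2 ABCC5 was called as well, at 0.78 (SE 0.116, adjusted p 0.000458), which is 3 of 6 against 19.7%. The difference between the T3 responses was called for ABCC4 and ABCC2 from 12 libraries, 2 of 6 against 2.59% of all genes. Without replicate 2 it was called for those and ABCC5, 3 of 6 against 15.2%. These comparisons share the TRB libraries with T3, so they are not separate evidence.

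How far replicate 2 lay from its group followed the GC content of each transporter. Its log2 CPM minus the mean of replicates 1 and 3 was 0.94 for ABCG2, with 41.2% G and C in its longest transcript. It was 0.76 for ABCB1 (43.1%), 0.66 for ABCC4 (43.2%) and 0.26 for ABCC2 (44.9%). It was -0.65 for ABCC5 (50.8%), -1.31 for ABCC1 (54.9%), -2.29 for ABCC3 (55.8%) and -2.57 for ABCC10 (58.7%). The order by GC content was the order by deviation for all 8 genes.

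**Figure D3:**
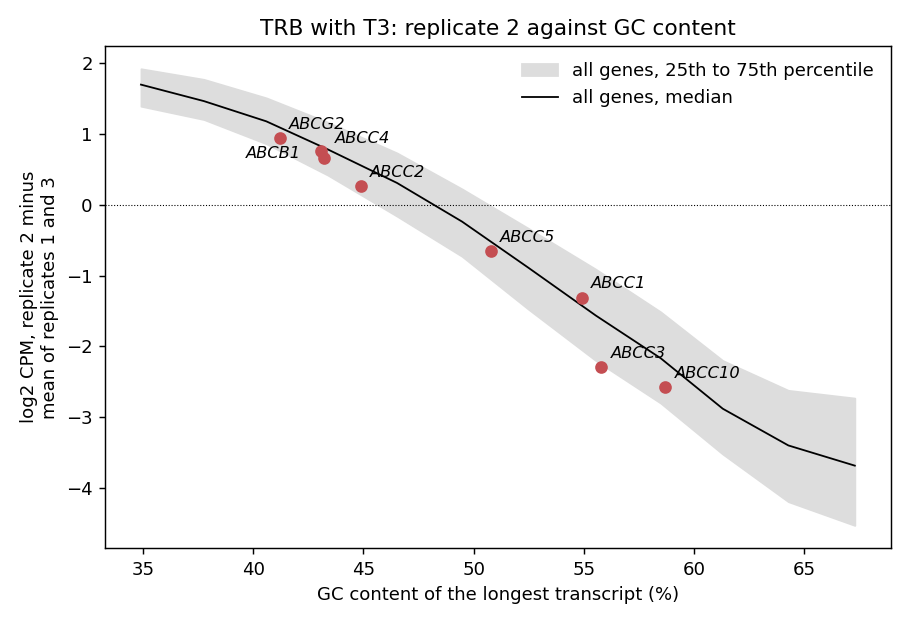
Deviation of replicate 2 of the TRB cells with T3 from the mean of replicates 1 and 3, in log2 CPM, against GC content in percent; the line and band give the median and quartiles of all genes with a GC value in bins, and the labelled points are the 8 transporters. The transporters run from 0.94 for ABCG2 down to -2.57 for ABCC10, along the trend of all genes.

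With offsets for GC content, 5 of the 6 ABCC genes were called for T3 in TRB cells, ABCC1, ABCC2, ABCC4 and ABCC5 higher and ABCC3 lower. The shares of all genes called were then 42.6% with 12 libraries and 56% without replicate 2. The log2 fold changes were 1.85 for ABCC4, 2.23 for ABCC2, 0.67 for ABCC1 and 0.66 for ABCC5 with replicate 2, and 1.89, 2.32, 0.62 and 0.68 without it. In EV cells ABCC1 and ABCC4 were called higher in both fits, against 4.46% and 17.7% of all genes. In vehicle 0 of 6 were called in either, against 0.0576% and 1.03%. Between TRB and EV cells with T3 the same 5 genes were called as for T3 in TRB cells, in the same directions, against 28.7% and 41.6%. The difference of the responses was called for ABCC2, ABCC4 and ABCC5, against 19.2%, and without replicate 2 also for ABCC3, at -0.34, against 34.3%.

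The make-up of the transporter transcripts changed with T3 in TRB cells. Levels of different genes are set side by side here as CPM per kilobase of exon. ABCC3 made up 73.4% of the summed level of the 8 genes in EV cells in vehicle, 66.3% in EV cells with T3 and 74.1% in TRB cells in vehicle, as means of 3 libraries. In TRB cells with T3 its share was 40.6%, 10.2% and 42.2% in the 3 libraries. ABCG2 took 0.681% in EV cells in vehicle, 5.27% in EV cells with T3 and 0.318% in TRB cells in vehicle. Its share in TRB cells with T3 was 22.0%, 50.05% and 21.3%. The ABCB1 share was at most 0.0398% in the 9 other libraries and 4.18%, 8.67% and 4.28% in TRB cells with T3. These shares describe the libraries, and they include the contrasts for which ABCB1 and ABCG2 were chosen.

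In EV cells in vehicle the order per kilobase was ABCC3 at 118.3, ABCC1 at 26.6, ABCC4 at 9.005, ABCC10 at 3.25, ABCC5 at 2.64, ABCG2 at 1.10, ABCC2 at 0.124 and ABCB1 at 0.0205 CPM per kilobase. No neighbours in that order overlapped between libraries. In TRB cells with T3 the order was ABCC3 at 79.6 ± 49.8, ABCG2 at 73.9 ± 30.0, ABCC1 at 38.3 ± 16.5, ABCC4 at 32.8 ± 9.23, ABCB1 at 13.6 ± 4.48, ABCC5 at 4.50 ± 1.13, ABCC10 at 3.33 ± 2.23 and ABCC2 at 0.614 ± 0.105 CPM per kilobase (SD, n = 3). There the libraries of ABCC3 and ABCG2 overlapped, as did those of ABCC1 and ABCC4 and those of ABCC5 and ABCC10. ABCB1 thus moved from the lowest place to the fifth, and ABCG2 from the sixth to the second.

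**Figure D4:**
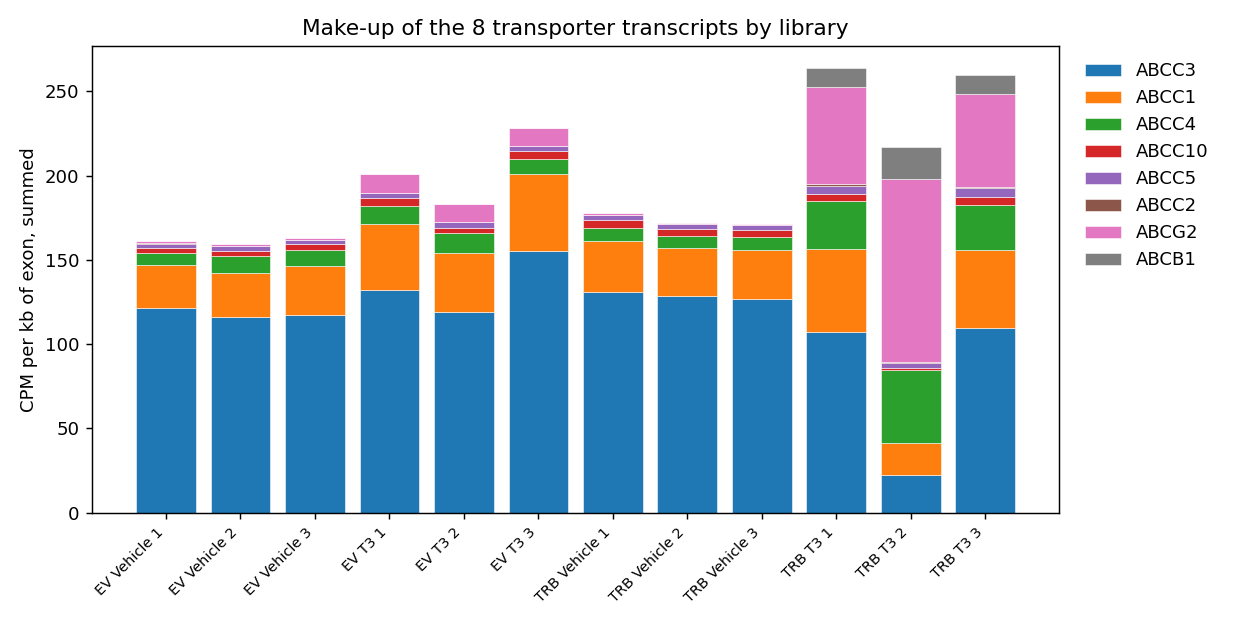
Summed level of the 8 transporters in each library in CPM per kilobase of exon, stacked by gene. ABCC3 fills about the same large part of the bars in vehicle, and ABCG2, ABCC4 and ABCB1 fill more of the bars of the TRB cells with T3, most of all in replicate 2.

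Other genes were compared with ABCB1 and ABCG2 by the Pearson correlation of log2 CPM over the 12 libraries, as a description. The libraries share 4 groups, so the correlation mostly reflects the group levels. The genes most like ABCB1 were NRP1 (0.994), SORT1 (0.992), GBE1 (0.992), MX2 (0.99) and GLUL (0.988). MX2 had a mean of 3.75 ± 0.137 CPM in TRB cells with T3 and 0.035 CPM or less in the other groups. Like ABCB1 it passed the filter only through the TRB cells with T3, so its likeness largely follows from the filter. NRP1, the neuropilin-1 co-receptor, went from 46.4 ± 1.37 to 400.5 ± 70.6 CPM with T3 in TRB cells and from 48.8 ± 3.25 to 68.3 ± 8.74 in EV cells (n = 3). The genes most like ABCG2 were MMP7 (0.994), TBX3 (0.994), CLIC5 (0.992), BCAS1 (0.989) and ANKRD29 (0.988). Among the transporters, ABCC4 was closest to ABCB1, at 0.978 with 12 libraries and with 11. ABCB1 and ABCG2 themselves stood at 0.875, or 0.833 with 11 libraries.

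Of 39 other ABC transporters listed, 24 were tested. With T3 in TRB cells 4 were called higher and 2 lower from 12 libraries, and 5 higher and 7 lower without replicate 2, against the 14.7% and 33.3% of all genes above. TAP2, a subunit of the peptide transporter that supplies MHC class I, rose from 7.38 ± 0.311 to 43.9 ± 6.502 CPM (n = 3), a log2 fold change of 2.57 (SE 0.196, adjusted p 1.81e-05). Its partner TAP1 rose by 1.87 (SE 0.386, adjusted p 0.00828). ABCB4, given above, and ABCC6 were the others called higher, ABCC6 by 1.63 (adjusted p 0.0245), and its reads may be shared with pseudogene copies. ABCC6 lay between 4.68 and 16.7 CPM in TRB cells with T3, overlapping its 3.27 to 4.78 CPM in TRB cells in vehicle. ABCG1, a cholesterol exporter, fell by 1.55 (SE 0.301, adjusted p 0.00576), and ABCA3, a lipid transporter of lamellar bodies, fell by 1.35 (adjusted p 0.0226).

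With T3 in EV cells edgeR called 0.229% of all genes, with 881 of 14431 at an unadjusted p under 0.05, and DESeq2 called 172. Of the 24, edgeR called none there from 12 libraries, with 4 at an unadjusted p under 0.05, while DESeq2 called 1. Without replicate 2 of the TRB cells with T3, TAP1, TAP2 and ABCC6 were called higher and ABCG1 and ABCA10 lower, against 7.33% of all genes. For the difference between the T3 responses, ABCB4 at 1.90 (SE 0.421, adjusted p 0.0425) and TAP2 at 1.61 (SE 0.27, adjusted p 0.0121) were called from 12 libraries. The share of all genes called there was 2.59%. Without replicate 2 the differences for ABCB4 and TAP2 were 1.68 (adjusted p 0.0129) and 1.5 (adjusted p 0.000605). That fit called 3 of the 24 higher and 2 lower, against 15.2% of all genes.

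**Figure D5:**
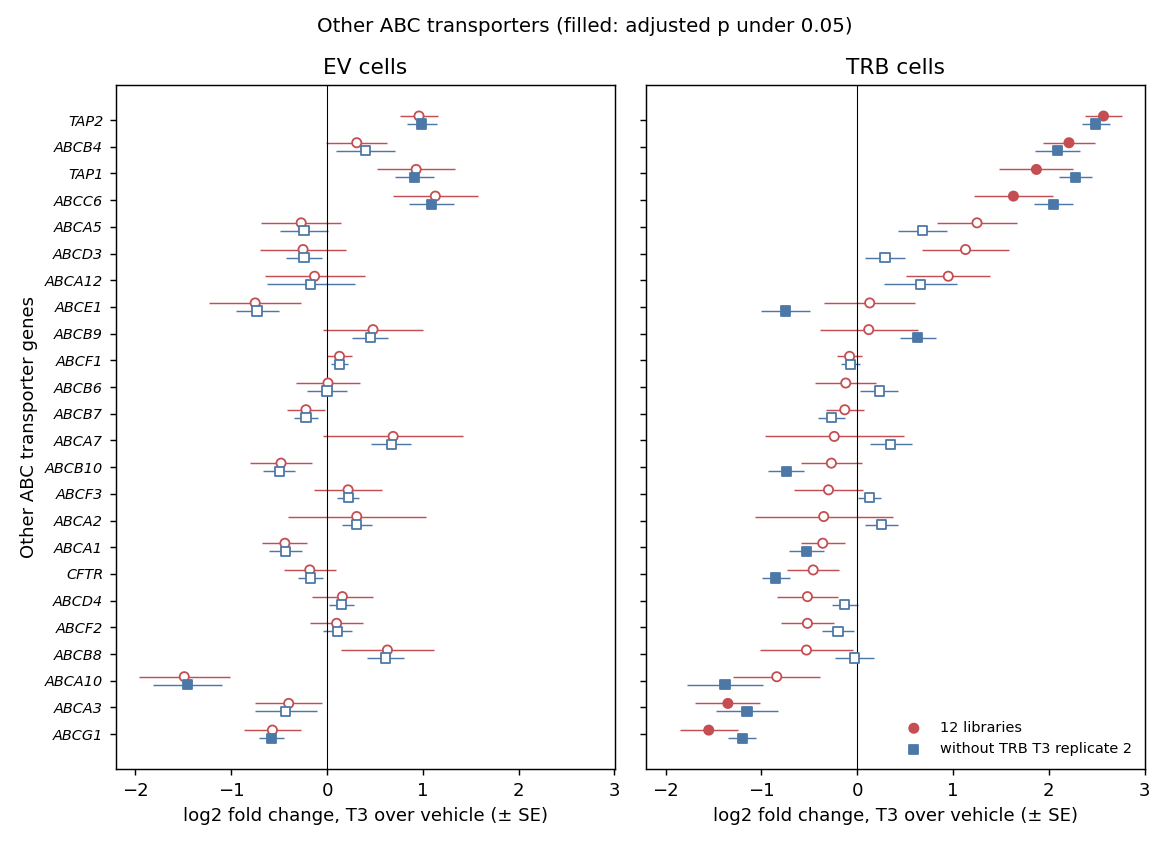
Log2 fold change with T3 against vehicle in EV cells and in TRB cells of the 24 tested ABC transporters outside the 8, from 12 libraries and from 11 without replicate 2 of the TRB cells with T3; bars are standard errors and filled points passed the test. In TRB cells TAP2, ABCB4, TAP1 and ABCC6 are called higher and ABCG1 and ABCA3 lower from 12 libraries.

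Of 26 listed regulators of efflux genes, 22 were tested, and with T3 in TRB cells 1 was called higher and 3 lower, against 14.7% of all genes called in either direction. HIF1A, the oxygen-regulated transcription factor, rose from 118.8 ± 13.9 to 595.3 ± 333.3 CPM (n = 3), a log2 fold change of 2.32 (SE 0.336, adjusted p 0.000998), and of 1.81 without replicate 2. HNF4A, a nuclear receptor of liver and gut epithelium, fell by 1.81 (SE 0.222, adjusted p 0.000354). The vitamin D receptor gene VDR fell by 1.15 (SE 0.152, adjusted p 0.000557) and PPARG by 0.47 (adjusted p 0.0358). NR1I2, the pregnane X receptor known for inducing ABCB1 in liver and gut, had 0 counts in all 12 libraries. Without replicate 2, 4 were called higher and 7 lower, against 33.3% of all genes. In EV cells edgeR called 0.229% of all genes and DESeq2 172 of 14431, with 881 and 998 at an unadjusted p under 0.05. None of the 22 was called there from 12 libraries in edgeR or DESeq2, with 0 at an unadjusted p under 0.05 in both. Without replicate 2 of the TRB cells with T3, 1 was called higher and 1 lower there, against 7.33% of all genes.

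Of 54 listed drug-metabolizing enzymes, 37 were tested, and 9 were called higher and 7 lower with T3 in TRB cells, or 16 and 9 without replicate 2, against 14.7% and 33.3% of all genes called in either direction. CYP3A5, a drug-oxidizing cytochrome P450 that shares many substrates with ABCB1, rose from 257.8 ± 7.45 to 594.2 ± 232.4 CPM, a log2 fold change of 1.20 (SE 0.247, adjusted p 0.00792). FMO5 rose by 2.78 (SE 0.323, adjusted p 0.000246), TPMT, which inactivates thiopurines, by 2.0 (adjusted p 0.00389), and CYP2U1 by 1.09 (adjusted p 0.0121). The TRB libraries with T3 spread widely, from 439.2 to 861.5 CPM for CYP3A5 and from 62.1 to 153.8 CPM for TPMT. In TRB vehicle these genes lay at 249.5 to 264.1 and 19.2 to 25.7 CPM. The fold changes of named enzymes are from 12 libraries, replicate 2 included. UGT1A1 and UGT1A6, which make glucuronides and share exons, rose by 1.82 and 1.7 (adjusted p 0.00055 and 0.000317). CYP3A7, GSTA1 and SULT1A2 were also called higher and reached 2.95, 1.74 and 7.12 CPM from vehicle levels of 0.0567, 0.130 and 0.169 CPM. Of the 9 called higher, these 3 passed the filter only through the TRB cells with T3, so they could only differ. CYP1B1 fell by 2.20 (SE 0.342, adjusted p 0.00162) and SULT1C2 by 2.06 (adjusted p 0.00407). CDA fell by 1.85, CYP2B6 by 1.63, MGST3 by 1.09, EPHX2 by 0.98 and GSTO2 by 0.93. In EV cells edgeR called 0.229% of all genes, with 881 of 14431 at an unadjusted p under 0.05, and DESeq2 called 172. Of the 37, edgeR called none there from 12 libraries, with 6 at an unadjusted p under 0.05, and DESeq2 called 2. Without replicate 2 of the TRB cells with T3, 5 were called higher and 2 lower there, against 7.33% of all genes.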

How the data were processed

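RNA-seq libraries of 12 SW1736 samples were used, 3 in each of 4 groups. The authors deposited whole-number counts of reads per gene symbol, 1 file per library. The submitters' processing notes name CASAVA 1.7, STAR 2.7, HTSeq 0.10, DESeq2 and the build hg38, with no role or order. Rows that name no gene were left out of library sizes. The alignments not unique to 1 place equalled 19.0 to 91.95% of each library's listed reads. A deposited table of normalized values was not used.

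Counts were tested with edgeR 4.0.16 (quasi-likelihood test, two-sided) in R 4.3.3. The fit took all 12 libraries, with 1 coefficient per group, TMM scaling, filterByExpr (minimum count 10, minimum total 15) and Benjamini-Hochberg adjustment at 0.05 over all 14431 genes tested. The 11-library fit tested 14825 genes. CPM values use the TMM library sizes. Lengths, GC content and positions come from GENCODE on GRCh38, the build also called hg38, and start windows from RefSeq (GRCh38.p14). GC offsets used a spline with 5 degrees of freedom over 12157 genes with a GC value. Alternatives were DESeq2 1.42.0, other scalings and filters, the compared groups alone, a replicate block and each library left out. ABCB1 and ABCG2 were planned for a test between groups in vehicle, and ABCB1 for T3 in EV cells, but these are given as descriptions because the filter or the choice used those libraries. The named genes are the 8 transporters, the listed genes called from 12 libraries for T3 in TRB cells, for T3 in EV cells or for the difference, examples that did not pass, and the 5 genes most like ABCB1 and ABCG2. Of the genes named, ABCA10 and RUNDC3B were singled out after their values were seen. The members and lists were chosen with earlier results of these data known. A symbol was counted as a whole, so isoforms and start sites are not separated. In the gene lists, 2 genes are not reported here and are left out of the list counts.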

Additional observations from a re-analysis of the deposited data

Results flagged for a closer look

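The T3 responses of 2 transporters differed between EV and TRB cells by a test of the difference itself in edgeR. For ABCC4 the response in TRB cells exceeded that in EV cells by 1.97 on the log2 scale (adjusted p 0.00831). All 3 TRB libraries with T3 were above all TRB vehicle libraries, as for 17.3% of all genes tested, and the EV groups overlapped. For ABCC2 the difference was 3.36 (adjusted p 0.0184), at no more than 69 counts in any library. Replicate 2 of the TRB cells with T3 lay 0.66 above the mean of its group's 2 other libraries for ABCC4 and 0.26 above it for ABCC2 on the log2 scale. Without it the differences were 1.76 and 3.35. The ABCC2 call was lost when certain other single libraries were left out, as given above, with an edgeR adjusted p of up to 0.086.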

How the results depend on the processing

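Counts of ABCC genes called moved over 1.5 times in these settings. For T3 in TRB cells, 2 in the fit reported, the count was 1 when at least 10 counts were required in every library, a filter that removes ABCC2, and 5 with GC offsets, with or without replicate 2 of the TRB cells with T3. For T3 in EV cells, 0 as reported, GC offsets gave 2 in both fits. In vehicle, 0 as reported, the compared groups alone gave 1. For TRB against EV cells with T3, 2 as reported, the counts were 1 with that count filter, 0 with the compared groups alone and 5 with GC offsets in both fits. For the difference, 2 as reported, they were 1 with that filter and 4 with GC offsets without replicate 2. Leaving out each library in turn gave 2 to 4, 0 to 1, 0 to 0, 2 to 3 and 1 to 3 in that order of comparisons. ABCG2 in vehicle, described without a test, was -0.93 from the compared groups alone. Apart from the GC offsets and the removed ABCC2, the cause was not tested.

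Directions turned only for small changes. ABCC1 between TRB and EV cells with T3, -0.06 as reported, was 0.30 with GC offsets, 0.25 with them and without replicate 2, 0.32 without TRB T3 replicate 2 and 0.07 without EV T3 replicate 3, with a range of -0.25 to 0.32 over left-out libraries. Its difference of responses, -0.21, was 0.27, 0.22 and 0.16 in the first 3 of these, with a range of -0.44 to 0.16. ABCC2 in vehicle, -0.13, was 0.25 without TRB vehicle replicate 2 and 0.13 without EV vehicle replicate 2, with a range of -0.34 to 0.25. ABCC3 in vehicle, 0.12, was -0.01 with GC offsets in both fits. ABCC10 with T3 in TRB cells, -0.37, was 0.01 with GC offsets without replicate 2 and 0.14 without that library, with a range of -0.66 to 0.14. Between TRB and EV cells with T3, ABCC10, -0.38, was 0.02 with GC offsets, 0.06 with them and without replicate 2 and 0.16 without that library, with a range of -0.68 to 0.16. Of the fold changes under the alternatives, 571 kept direction and side of the threshold, 25 gained a call, 6 lost one and 16 turned.

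Over all genes, 2128 were called for T3 in TRB cells, against 634 from the compared groups alone, 5181 with GC offsets, 6907 with GC offsets without replicate 2 and 4938 without replicate 2 alone. In vehicle it was 3 against 1563 from the compared groups alone.

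Replicate numbers were not taken as pairing the libraries, which would need every same-numbered pair of the groups compared to correlate over 0.1 in their deviations. Of 18 same-numbered pairs 12 did, and 7 of 12 libraries correlated best with their own number, but every comparison had a pair below that, the lowest being -0.145 for T3 in TRB cells, -0.032 for T3 in EV cells, 0.023 in vehicle and 0.059 with T3. With the replicate block, T3 in TRB cells gave 2 ABCC genes called, and ABCC4 stood at 2.13 (adjusted p 0.000259). Depth limits ABCB1 outside TRB cells with T3 and ABCC2 throughout.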

Other observations

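Targets of NRF2, the transcription factor of the oxidative stress response that also acts on several efflux genes, were among those called with T3 in TRB cells. Of 18 listed, 16 were tested, 4 were called higher and 3 lower from 12 libraries, and 6 higher and 5 lower without replicate 2 of the TRB cells with T3, against 14.7% and 33.3% of all genes called. HMOX1, the heme oxygenase, rose by 2.40 on the log2 scale (SE 0.583, adjusted p 0.019). GCLM, a subunit of the enzyme that starts glutathione synthesis, rose by 1.59 (adjusted p 0.0147, and by 0.97 without replicate 2), AKR1C3 by 1.31 and ME1 by 1.31. HMOX1 lay between 3.78 and 34.7 CPM in TRB cells with T3, overlapping its 3.61 to 5.08 CPM in TRB cells in vehicle. SLC7A11, the cystine importer, fell by 2.59 (SE 0.42, adjusted p 0.00204), AKR1B10 by 1.62 and FTH1 by 1.17. SLC7A11 had 84.2 ± 33.6 CPM in EV cells with T3 against 294.1 ± 44.4 in vehicle (n = 3), and it was called lower there without replicate 2, by 1.78 (adjusted p 0.00146). For NQO1, another target, the levels were 370.1 ± 11.8 and 320.4 ± 49.4 CPM in TRB cells in vehicle and with T3.

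Of 32 listed drug uptake and other non-ABC carriers, 20 were tested and 4 were called higher and 2 lower with T3 in TRB cells, against 14.7% of all genes. Without replicate 2, 21 were tested and 7 were called higher and 4 lower, against 33.3%. SLC28A3, a nucleoside importer that also takes up nucleoside drugs, rose in TRB cells from 3.10 ± 0.447 to 8.05 ± 1.30 CPM (log2 fold change 1.36, adjusted p 0.00189). It also rose in EV cells from 5.66 ± 1.007 to 13.8 ± 1.58 CPM (log2 fold change 1.27, adjusted p 0.0487). SLC31A2 rose by 1.09, SLC22A5, the carnitine importer, by 0.89 and SLCO3A1 by 0.79. SLC47A2 fell by 2.42, and SLCO4A1, an organic anion importer, by 1.98 (adjusted p 0.0419).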
